A study of Mus musculus with 18 samples.

Results

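Hepatic gluconeogenesis was examined through 9 genes that encode its enzymes, its glucose 6-phosphate transporter, a transcriptional co-activator and the aminotransferases that feed it. The genes were chosen by symbol (G6pc1, Slc37a4, Pck1, Fbp1, Pcx, Ppargc1a, Gpt, Gpt2 and Got1; G6pc1 is G6pc in older releases). All 9 were found among the 52230 genes with a joined transcript, and all 9 were among the 10938 genes tested. The values are RNA-sequencing counts from whole liver of 18 mice of the GCKR-P446L-EMI-B6N strain on standard chow, 1 library per mouse. The strain carries a knock-in allele of Gckr, in which a proline of its product GKRP is replaced by leucine. Mice were homozygous for the proline (PP, the wild type) or the leucine (LL). Each genotype had 4 males and 5 females. Ages in the labels were 9 to 14 weeks, 9 to 14 in male PP and female PP, 13 to 14 in male LL and 11 to 14 in female LL mice, whereas the design text of the series gives 14 weeks for all. Mice of the study had free access to food unless the methods say otherwise, and no hour of culling is given in the sources used here.

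Gluconeogenesis makes glucose from lactate, amino acids and glycerol, and in liver it is mainly a task of periportal hepatocytes. It runs glycolysis in reverse except at the irreversible steps, which are bypassed by pyruvate carboxylase with phosphoenolpyruvate carboxykinase, by fructose 1,6-bisphosphatase and by glucose 6-phosphatase. Glucagon and glucocorticoids raise, and insulin lowers, transcription of several of these genes, so that their RNA varies with feeding.

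Start-site sequences are given for genes on which the results turn. G6pc1 and Pck1 are shown because they varied most of the 9 members among female PP mice, with a coefficient of variation of 55.7% and 39.9%, Gpt2 because it differed by sex, and Pcx because its counts were divided between transcripts with different first exons. RefSeq promoter sequences were found for 8 of the 9 members, with 11 start sites in all, on build GRCm38.p6. Gpt was not matched. The 250 bases before each start are printed in lower case, 5′ to 3′ in the direction of transcription, with matches to 5 short motifs in capitals. The motifs were the core of the cAMP response element (ACGTCA), a forkhead site (GTAAACA), an insulin response core (CAAAACA), an E-box (CACGTG) and the TATA box (TATAAA), each searched on both strands. None of these motifs contains another.
G6pc1, chr11:101367466-101367715, forward strand: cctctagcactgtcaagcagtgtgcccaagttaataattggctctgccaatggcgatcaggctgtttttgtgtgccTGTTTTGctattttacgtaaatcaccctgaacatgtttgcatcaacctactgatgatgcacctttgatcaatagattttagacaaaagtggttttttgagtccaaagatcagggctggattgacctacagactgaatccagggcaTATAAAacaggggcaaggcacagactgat
Pck1, chr2:173152823-173153072, forward strand: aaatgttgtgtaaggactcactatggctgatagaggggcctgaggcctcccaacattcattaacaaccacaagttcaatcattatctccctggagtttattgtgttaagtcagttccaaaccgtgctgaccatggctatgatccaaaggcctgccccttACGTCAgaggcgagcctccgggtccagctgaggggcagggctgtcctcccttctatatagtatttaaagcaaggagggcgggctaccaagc
Gpt2, chr8:85492326-85492575, forward strand: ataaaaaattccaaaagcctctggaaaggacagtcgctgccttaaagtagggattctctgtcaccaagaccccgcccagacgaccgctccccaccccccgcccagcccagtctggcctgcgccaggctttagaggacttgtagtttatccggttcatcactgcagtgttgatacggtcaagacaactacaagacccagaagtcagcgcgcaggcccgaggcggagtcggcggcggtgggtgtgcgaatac
Pcx, first start site, chr19:4510222-4510471, forward strand: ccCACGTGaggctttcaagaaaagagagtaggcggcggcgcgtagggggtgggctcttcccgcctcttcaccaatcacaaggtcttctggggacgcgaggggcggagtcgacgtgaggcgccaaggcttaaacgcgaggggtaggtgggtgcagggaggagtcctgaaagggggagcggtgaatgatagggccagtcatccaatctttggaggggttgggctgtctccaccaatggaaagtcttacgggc
Pcx, second start site, chr19:4594069-4594318, forward strand: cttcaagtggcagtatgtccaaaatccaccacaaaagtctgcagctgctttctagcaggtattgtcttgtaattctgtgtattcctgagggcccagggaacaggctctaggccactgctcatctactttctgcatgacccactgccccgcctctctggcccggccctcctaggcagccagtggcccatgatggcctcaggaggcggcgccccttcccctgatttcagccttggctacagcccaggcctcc
The capitals mark an insulin response core on the reverse strand and a TATA box in G6pc1, a cAMP response element core in Pck1 and an E-box in the first Pcx window. The cAMP response element core was also found before Ppargc1a and before a pair of overlapping Slc37a4 start sites, where it is 1 and the same match. Among all 32851 promoter windows of this length, 6.47% held the cAMP response element core, 5.56% the insulin response core, 3.17% the forkhead site, 6.02% the E-box and 12.4% the TATA box. None of the 5 motifs was found in the Gpt2 window or in the second Pcx window, which says only that these letters are absent there.

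Libraries held between 3794671 and 6613905 estimated counts. Hepatocyte markers such as Alb and Apoa1 were abundant in every library, and the adipocyte markers Adipoq, Plin1 and Lep summed to at most 0.911 normalized counts in any of them. Libraries of the 5 female PP mice had a fragment length of 448 ± 108 bases (SD), against 292 ± 52.1 bases for the 5 female LL mice, with an exact permutation p of 0.0159 that became 0.178 after adjustment over 28 tests. In males it was 518 ± 95.8 and 407 ± 156 bases (SD, n = 4 each, exact permutation p = 0.286). Of the 28 tests of library measures by genotype, 5 had an unadjusted p below 0.05 and none passed after adjustment. The other 4 were as follows. Mitochondrial genes took 12.5% ± 1.34 of the counts of female LL mice and 10.2% ± 1.11 in female PP mice (SD, exact permutation p = 0.0317). The summed level of 6 Kupffer cell markers was 461 to 742 in female LL and 768 to 951 in female PP mice (exact permutation p = 0.00794). That of 6 hepatocyte markers averaged 663300 in female LL against 772300 in female PP mice (exact permutation p = 0.0238), and in the opposite order 573800 in male LL against 465400 in male PP mice (exact permutation p = 0.0571). That of 5 cholangiocyte markers was 54.8 to 73.2 in male LL and 74.8 to 117 in male PP mice (exact permutation p = 0.0286). All 5 endothelial markers had a log2 fold change below 0 in female LL mice (median -0.60), 4 of them with an unadjusted p below 0.05 in DESeq2 and none past adjustment. In male LL mice 4 of these 5 were above 0 (median 0.36). The 4 tested stellate markers were likewise all below 0 in female LL mice (median -0.41) and all above 0 in male LL mice (median 0.58). For the 6 Kupffer cell markers the log2 fold change was below 0 in LL mice of both sexes (median -0.43 in females and -0.58 in males). Over both sexes 2 of the 6 fell with a DESeq2 adjusted P below 0.05, as 1.65% of all genes tested passed in either direction. The part of these measures in the genotype values of the members and of the other genes named below was not tested. In bulk liver, fewer cells of a type and less RNA per cell cannot be told apart. Values are normalized counts, which compare mice for 1 gene, unless a level is given in TPM, a unit scaled within each library that also accounts for transcript length.

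Per length, the members fell into 3 tiers whose ranges over the 18 mice did not overlap. Fbp1 (median 676 TPM) and Pck1 (526 TPM) formed the upper tier, with ranges of 295 to 1337 and 322 to 1008 TPM. Got1, Gpt, G6pc1, Gpt2, Pcx and Slc37a4 formed the middle tier, with medians from 95.1 TPM for Got1 to 53.5 TPM for Slc37a4, and every neighbour in this order overlapped the next. These TPM are sums over transcripts and in some mice included short ones. In male PP 3, Fbp1-201 held 170 of the 318 TPM of Fbp1, and Fbp1-203, of 612 bases, held 148. In female PP 3, Gpt-201 held 10.8 of the 239 TPM of Gpt. Ppargc1a, the co-activator PGC-1α that raises transcription of Pck1 and G6pc1 in fasting, stood alone at a median of 0.63 TPM (range 0.191 to 1.92). It rested on 11 to 42 raw counts per library, so its changes carry a wide counting error.

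G6pc1 (ENSMUSG00000078650, chromosome 11, 101258369 to 101268729 on GRCm39) encodes the catalytic subunit of glucose 6-phosphatase, which releases free glucose. Its normalized counts were 1139, 790, 1423 and 726 in male PP mice and 1150, 2001, 1093 and 858 in male LL mice. Female PP mice had 476, 1504, 1600, 609 and 2140, and female LL mice had 1771, 1728, 1908, 774 and 964. Each group held both low and high mice and all 4 ranges overlapped. The highest female PP mouse had 4.50 times the count of the lowest, the widest range of any member within a group. LL less PP on the log2 scale was 0.32 ± 0.45 (SE, as for all log2 fold changes here) for males and 0.17 ± 0.41 for females (DESeq2 adjusted P = 0.878 and 0.887). The 95% interval of the fold change ran from 0.675 to 2.32 in males and from 0.650 to 1.96 in females.

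Slc37a4 (ENSMUSG00000032114, chromosome 9, 44308144 to 44314265) encodes the transporter that carries glucose 6-phosphate into the endoplasmic reticulum for G6pc1. It overlaps Trappc4 on the opposite strand, and the strand of the libraries is not given in the sources used here. Counts were 629, 457, 546 and 544 in male PP and 489, 751, 702 and 697 in male LL mice. In females they were 628, 525, 619, 605 and 750 in PP and 596, 593, 606, 484 and 436 in LL mice. The male LL mean lay above and the female LL mean below that of PP mice, with overlapping ranges in both sexes. By LL genotype the log2 fold change was 0.28 ± 0.16 in males (adjusted P = 0.494) and -0.20 ± 0.14 in females (adjusted P = 0.507). The difference between these effects, tested as the genotype by sex interaction, was -0.49 ± 0.21 with an unadjusted p of 0.0205 and a DESeq2 adjusted P of 0.394.

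Pck1 (ENSMUSG00000027513, chromosome 2, 172994744 to 173001066), the cytosolic phosphoenolpyruvate carboxykinase, had the highest counts of the set. Male PP mice had 13204, 11290, 10488 and 9617, and male LL mice had 8026, 10278, 11654 and 15350. Female PP mice had 6326, 11136, 11531, 4757 and 13740, and female LL mice had 7787, 7059, 10386, 13249 and 11436. The means of the groups differed little against this spread. The fold change by LL genotype was 1.02 in males (95% interval 0.696 to 1.48, adjusted P = 0.997) and 1.05 in females (0.749 to 1.48, adjusted P = 0.929). A change of 1.5-fold or more lay outside both intervals.

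Fbp1 (ENSMUSG00000069805, chromosome 13, 63012567 to 63036263) encodes the liver fructose 1,6-bisphosphatase. Male PP mice had 3376, 3159, 3016 and 3642 and male LL mice had 2993, 4238, 4159 and 4879. In male LL mice 3 of 4 were above every male PP mouse and the other was below all of them. This gave a log2 fold change of 0.30 ± 0.16, with an unadjusted p of 0.0538 and a DESeq2 adjusted P of 0.453. Female PP mice had 3741 to 5118 (median 4361) and female LL mice 3633 to 5284 (median 4686), with a log2 fold change of 0.07 ± 0.14 (adjusted P = 0.855).

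Pcx (ENSMUSG00000024892, chromosome 19, 4559902 to 4672189) encodes the mitochondrial pyruvate carboxylase, the first step from pyruvate. Counts were 1018, 1150, 970 and 1222 in male PP and 745, 1060, 1329 and 844 in male LL mice, so that the LL mice spread to both sides of the PP mice. In females they were 1165 to 1693 (median 1465) in PP and 1255 to 1664 (median 1357) in LL mice. The fold change by LL genotype was 0.913 in males (95% interval 0.727 to 1.15, adjusted P = 0.860) and 0.984 in females (0.804 to 1.20, adjusted P = 0.965).

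Ppargc1a (ENSMUSG00000029167, chromosome 5, 51611592 to 51725068) had 17.6 to 20.7 normalized counts in male PP, 10.7 to 35.6 in male LL, 18.5 to 32.7 in female PP and 13.8 to 49.4 in female LL mice. Both LL groups had the wider range. By genotype its log2 fold change was 0.27 ± 0.39 in males, where DESeq2 left the adjusted P empty through its filter on low counts, and 0.11 ± 0.33 in females (adjusted P = 0.916).

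The aminotransferases supply pyruvate and oxaloacetate from amino acids. Gpt (ENSMUSG00000022546, chromosome 15, 76579616 to 76583890) is the cytosolic alanine aminotransferase and Gpt2 (ENSMUSG00000031700, chromosome 8, 86218810 to 86255577) its mitochondrial form. Gpt had 531 to 753 counts in male PP and 360 to 637 in male LL mice, and 585 to 964 in female PP and 531 to 1180 in female LL mice. Its log2 fold change by LL genotype was -0.30 ± 0.24 in males (adjusted P = 0.692) and 0.03 ± 0.22 in females (adjusted P = 0.976). When transcript length entered as an offset, the female value was -0.57 (DESeq2 adjusted P = 0.676).

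Gpt2 had 1429, 1351, 1528 and 1625 counts in male PP and 1857, 1612, 1786 and 1786 in male LL mice. In females it had 852, 898, 1090, 1261 and 1128 in PP and 1050, 1109, 1527, 1441 and 1156 in LL mice. The LL mean was the higher in both sexes, with ranges that overlapped. Its change on the log2 scale was 0.25 ± 0.14 in males (adjusted P = 0.515) and 0.26 ± 0.13 in females (adjusted P = 0.300). Over both sexes it was 0.26 ± 0.10, a 1.19-fold difference (95% interval 1.05 to 1.36), with an unadjusted p of 0.00749 and a DESeq2 adjusted P of 0.118. Without female PP 4, which had the highest count of its group, it was 0.29 and the adjusted P was 0.0382. This was the only one of 28 alternative fits of this comparison in which the adjusted P of Gpt2 was below 0.05. Over the 28 fits the log2 fold change ran from 0.11 to 0.31. In males alone it ran from 0.03 to 0.48 over 29 alternative fits. Age as a term was 1 of the alternative fits. Ages were unequal between the genotypes, and from mouse to mouse Gpt2 had the strongest relation with age of the members. Its r with age was 0.61 (permutation p = 0.0185, adjusted 0.333).

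Got1 (ENSMUSG00000025190, chromosome 19, 43488188 to 43513674) is the cytosolic aspartate aminotransferase of the malate-aspartate shuttle. Male PP mice had 435, 825, 880 and 612 counts and male LL mice had 927, 1133, 672 and 1876. Of the male LL mice, 3 of 4 were above every male PP mouse. Got1 had a male log2 fold change of 0.74 ± 0.28, a 1.67-fold difference (95% interval 1.14 to 2.46), with an unadjusted p of 0.00871 and a DESeq2 adjusted P of 0.231. Without male LL 3, the lowest of its group, it was 0.93 and the adjusted P was 0.0387. It was above 0.05 in the other 28 of 29 alternative fits. Over all 29 the male log2 fold change ran from 0.40 to 1.16, the highest on the TPM scale. Male LL 4, at 1876 counts, was the highest of its group. Female PP mice had 749 to 1632 (median 982) and female LL mice 957 to 1368 (median 1023), with a log2 fold change of -0.01 ± 0.25 (adjusted P = 0.994). The genotype by sex interaction of Got1 was -0.75 ± 0.38 with an unadjusted p of 0.0477 and a DESeq2 adjusted P of 0.480.

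**Figure D1:**
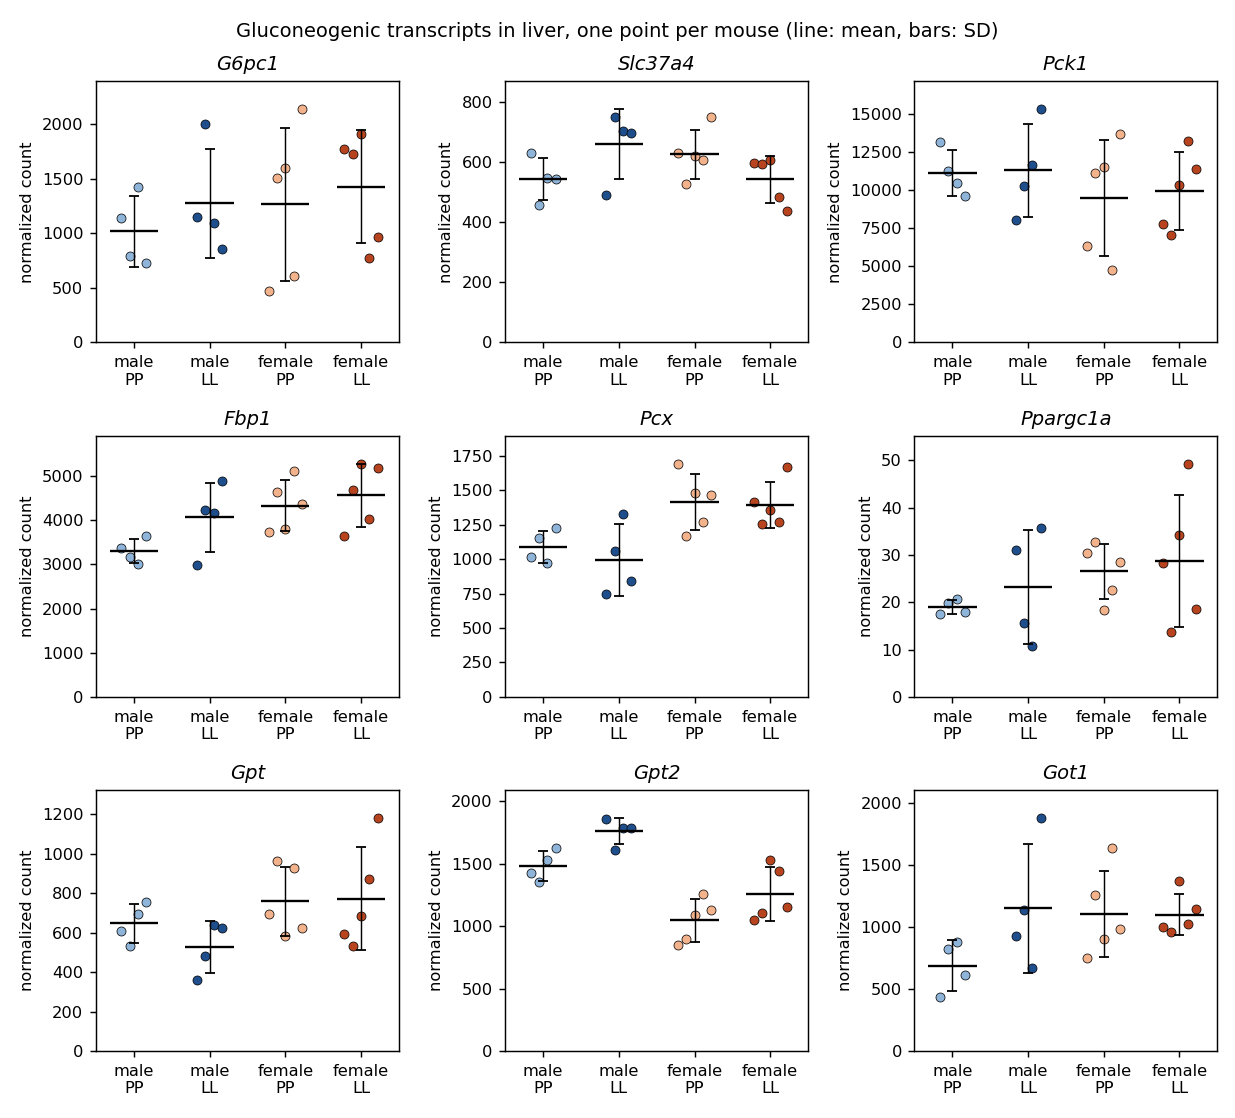
Normalized counts (vertical axes, linear from 0) of the 9 members in each group, with 1 point per mouse, the mean as a horizontal line and the SD as bars (n = 4 male PP, 4 male LL, 5 female PP, 5 female LL). G6pc1 and Pck1 spread widely within the female PP group, and for Gpt2 all female points lie below the male points of the same genotype.

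Counted over the set, none of the 9 members was a differentially expressed gene (DEG, which requires an adjusted P below 0.05 and a ratio of 1.3 or above, or of 0.7 or below) by LL genotype in males, where 0.283% of all genes tested were. None was in females, against 0.658% of all genes, over both sexes, against 0.978%, or by the genotype by sex interaction, which has no fold limit, against 0.119%. At an unadjusted p below 0.05 there was 1 member in males (Got1), 1 in females (Gpt2), 1 over both sexes (Gpt2) and 2 in the interaction (Slc37a4 and Got1), against 7.83%, 13%, 13.8% and 5.67% of all genes. The edgeR quasi-likelihood test with TMM scaling called 0 members in each of these 4 comparisons. Of all 10938 genes it called 3 in males, 3 in females, 9 over both sexes and 0 in the interaction. With so few calls it says little about the members. The log2 fold change was above 0 for 7 members in males and 6 in females, where 50% and 51.6% of all genes were above 0. The median over the members was 0.27 in males and 0.07 in females, beside medians over all genes tested of less than 0.02 in either sex. The PP and LL groups overlapped for all 9 members in both sexes, whereas 4.07% of all genes in males and 2.66% in females had groups that did not overlap. Of 10938 genes tested in males, 3301 kept an adjusted P after the DESeq2 filter. In females 8598 did, over both sexes 7541 and in the interaction 1606. Ppargc1a had no adjusted P in males, over both sexes or in the interaction, so it could not pass there. Zonation markers moved in these comparisons too. Of 8 periportal hepatocyte markers, 7 had a log2 fold change above 0 in male LL mice (median 0.33) and 3 in female LL mice (median -0.13), and of 8 pericentral markers 0 in males (median -0.44) and 6 in females (median 0.21). By adjusted P, 1 of these 16 markers, a periportal one, fell in females and none passed in males. Their part in the values of the members was not tested.

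**Figure D2:**
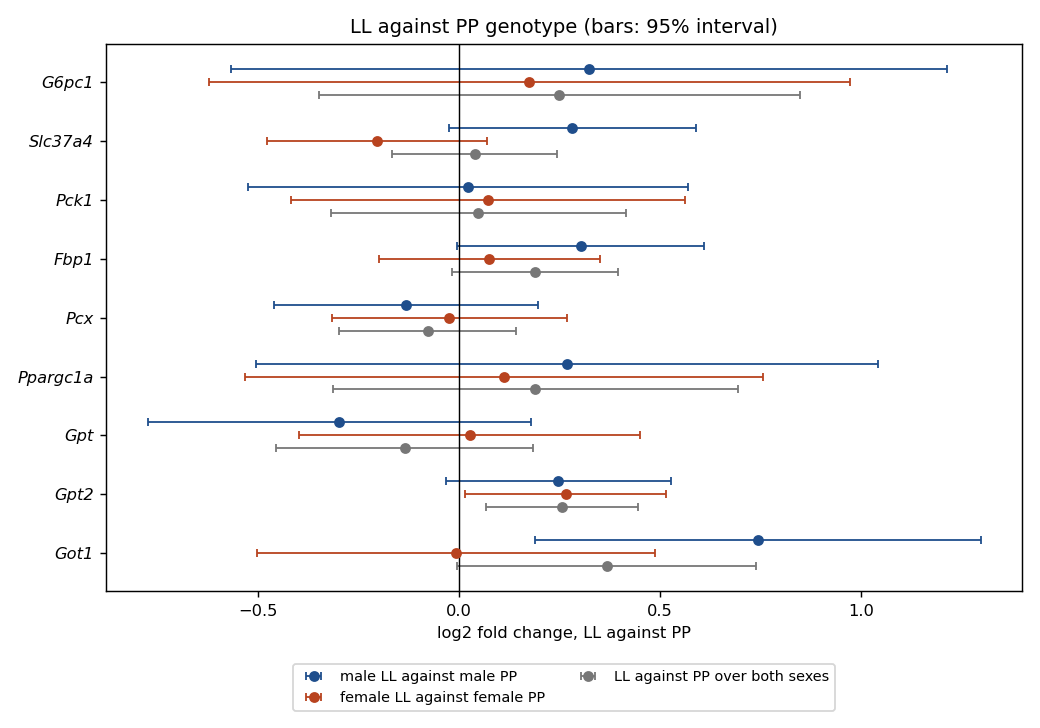
Log2 fold change by LL genotype (horizontal axis) of each member in males, in females and over both sexes, with 95% intervals as bars. The intervals include 0 except for Got1 in males and Gpt2 in females and over both sexes, and none of these had an adjusted P below 0.05.

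The sexes differed for Gpt2. In PP mice the 5 females (852 to 1261 counts) were all below the 4 males (1351 to 1625), and in LL mice the 5 females (1050 to 1527) were all below the 4 males (1612 to 1857). The log2 fold change, female against male, was -0.50 ± 0.14 in PP mice (DESeq2 adjusted P = 0.00508) and -0.49 ± 0.14 in LL mice (adjusted P = 0.00921). The fold changes were 0.705 (95% interval 0.586 to 0.847) and 0.714 (0.594 to 0.858), just above the limit of 0.7 that a DEG requires. The genotype by sex interaction of Gpt2 was 0.02 ± 0.19 (adjusted P = 0.989), so that a difference between the PP and LL sex effects was not detected. With edgeR the adjusted P was 0.0333 in PP and 0.0434 in LL mice. The adjusted P stayed below 0.05 in 27 of 29 alternative fits in PP and in 26 of 29 in LL mice. It rose to 0.104 and 0.307 when transcript length entered as an offset, to 0.0654 in LL mice with fragment length as a term, and to 0.652 and 0.741 on the TPM scale.

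On the TPM scale the Gpt2 difference in PP mice was +0.17 on log2(TPM + 1), opposite in sign. That scaling raised the median of all genes by 0.50 between the same groups, and relative to this median Gpt2 was lower by a log2 difference of -0.33 in PP and -0.40 in LL mice. The TPM of a single mouse also rested in part on short transcripts. In male PP 4, Gpt2-205, of 628 bases, held 63.3 of the 109 TPM of Gpt2 with 124 estimated counts, where the main transcript Gpt2-201, of 3639 bases, held 43.8 TPM with 1670 counts. As a share of the summed TPM of both alanine aminotransferases, Gpt2 made up 40.8% ± 5.40 in male PP, 52.2% ± 14.5 in male LL (SD, n = 4 each), 32.1% ± 12.7 in the 5 female PP mice and 42.8% ± 7.27 in the 5 female LL mice (SD). Of the 31-base words of Gpt2 transcripts, 4.45% also occurred in transcripts of other genes, the highest share of the set.

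Pcx was higher in females. In LL mice females had 1255 to 1664 counts and males 745 to 1329, or 0.48 ± 0.16 on the log2 scale (adjusted P = 0.0374 in DESeq2, 95% interval of the fold change 1.13 to 1.74), which made it the only DEG of the set in any comparison. Only male LL 3, at 1329, reached the female range. The adjusted P was below 0.05 in 17 of 29 alternative fits. It was 0.0867 with edgeR and rose above 0.05 without female LL 1 (0.0804), female LL 5 (0.137), male LL 1 (0.194), male LL 2 (0.0622) or male LL 4 (0.134), with log2 fold changes of 0.37 to 0.51. In PP mice the difference was 0.38 ± 0.16 (adjusted P = 0.150).

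Fbp1 and Got1 had higher means in female than in male PP mice without passing the test. For Fbp1 the 5 female PP mice (3741 to 5118) were all above the 4 male PP mice (3016 to 3642), which was 0.39 ± 0.15 on the log2 scale with an adjusted P of 0.0909. Got1 had a log2 fold change of 0.68 ± 0.27 (adjusted P = 0.111), and with age as a term it was 0.85 with an adjusted P of 0.0222. In LL mice the values were 0.17 ± 0.15 (adjusted P = 0.585) for Fbp1 and -0.07 ± 0.27 (adjusted P = 0.928) for Got1. Gpt had a log2 fold change of 0.55 ± 0.23 in LL mice (adjusted P = 0.133), and G6pc1, Pck1, Slc37a4 and Ppargc1a had adjusted P values of 0.272 to 0.886 in both sex comparisons.

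By count, 1 of the 9 members had an adjusted P below 0.05 between female and male PP mice and 2 between female and male LL mice, where 7.01% and 7.11% of all genes tested had. DEGs were 0 and 1 of the 9, against 6.45% and 6.12% of all genes. The groups did not overlap for 2 members in PP mice (Fbp1 and Gpt2) and 1 in LL mice (Gpt2), against 9.74% and 8.16% of all genes. Markers of other liver cell types also differed by sex. The summed level of 5 endothelial markers was 130 to 245 in male PP and 256 to 531 in female PP mice, and that of 5 stellate cell markers 262 to 549 and 641 to 875. The sum of 6 hepatocyte markers was 430400 to 535300 in male PP and 740200 to 836500 in female PP mice. In LL mice the sums overlapped between the sexes for endothelial markers (182 to 239 in males and 190 to 371 in females) and stellate markers (465 to 760 and 376 to 862), and for hepatocyte markers they were 520700 to 617300 in males and 617700 to 742500 in females. Of the zonation markers, 2 of 8 periportal ones were lower and 1 of 8 pericentral ones was higher in female than in male LL mice by adjusted P. In PP mice 0 of either list passed between the sexes, but the lists moved in opposite directions. There 7 of 8 periportal markers were higher in females (median log2 fold change 0.26) and 0 of 8 pericentral ones (median -0.45). In LL mice 1 of 8 periportal markers (median -0.20) and 6 of 8 pericentral ones (median 0.32) were higher in females. No marker of the endothelial, stellate and hepatocyte lists was at 0 in all libraries, and the part of these markers in the differences of Gpt2 and Pcx was not tested.

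**Figure D3:**
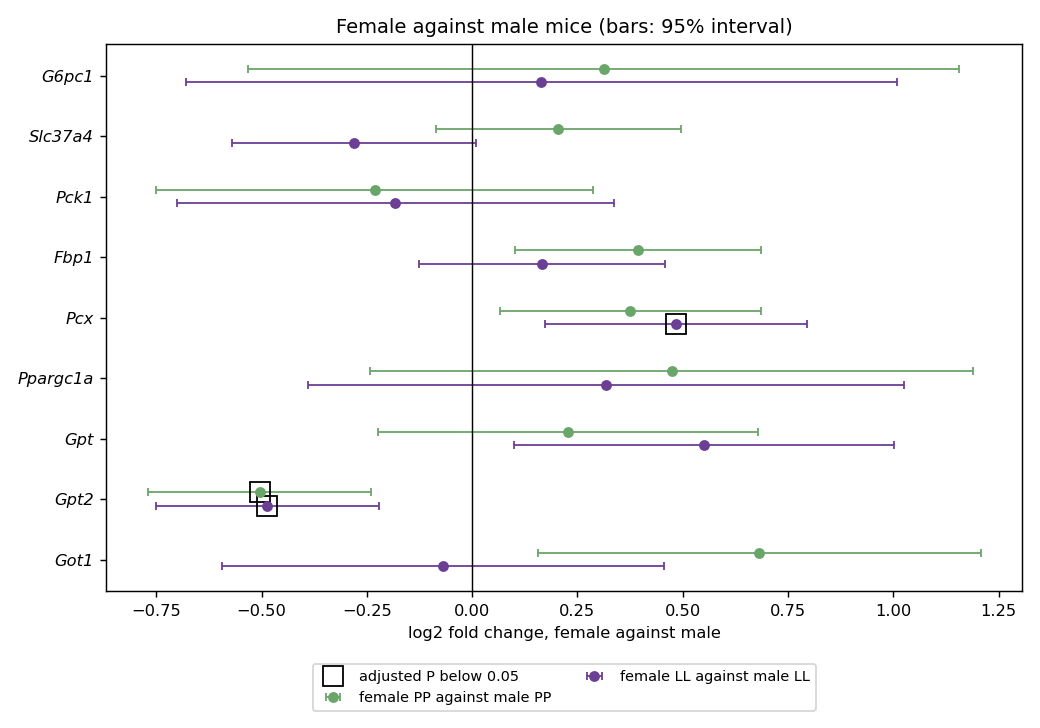
Log2 fold change of female against male mice (horizontal axis) for each member in PP and in LL mice, with 95% intervals as bars and squares at an adjusted P below 0.05. Squares mark Gpt2 in both genotypes (-0.50 and -0.49) and Pcx in LL mice (0.48).

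Members were next compared from mouse to mouse, after subtraction of the mean of each group from log2 (normalized count + 1). None of the 36 pairs passed a permutation test after Benjamini-Hochberg adjustment. The strongest was Fbp1 with Gpt, with a Pearson r of 0.60 (permutation p = 0.0306, adjusted 0.771) and a Spearman rho of 0.65 over 18 mice. G6pc1 and Slc37a4, whose products act together, had an r of 0.42 (permutation p = 0.0967, adjusted 0.771) and a rho of 0.46 (permutation p = 0.0852, adjusted 0.766), and r was 0.41 without the 2 mice farthest from the median. G6pc1 and Pck1 had an r of 0.33 (permutation p = 0.333, adjusted 0.771) and a rho of 0.27 (permutation p = 0.381, adjusted 0.916), and r was 0.07 without the 2 farthest mice. The relation of this pair therefore rested on few mice. Female PP 1 and female PP 4 had the 2 lowest counts of all 18 mice for both G6pc1 (476 and 609) and Pck1 (6326 and 4757), while female PP 5 had the highest count of G6pc1. These 2 mice were not alike for Got1, where female PP 1 had the lowest and female PP 4 the highest count of their group.

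**Figure D4:**
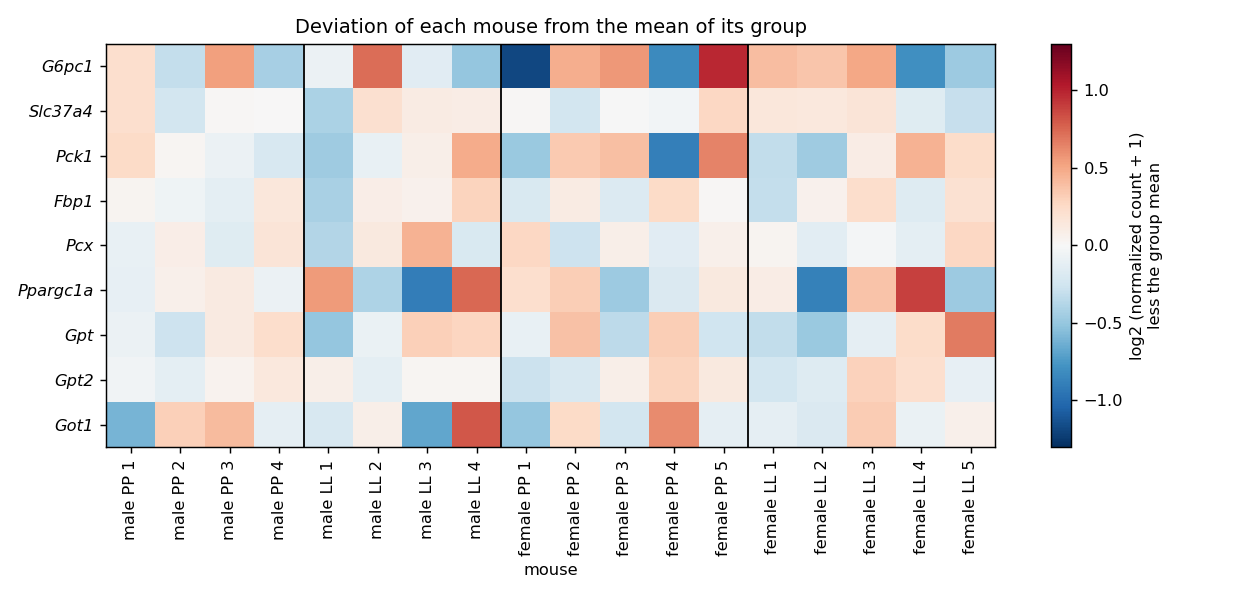
Deviation of each mouse (columns) from the mean of its group in log2 (normalized count + 1), for the 9 members (rows), with red above and blue below the group mean. The deepest colours are in G6pc1, Pck1, Ppargc1a and Got1, and no column is of 1 colour throughout.

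None of the 18 relations of a member with fragment length or with age passed the test. The strongest was that of Gpt2 with age, with an r of 0.61 (permutation p = 0.0185, adjusted 0.333) and a rho of 0.68 (permutation p = 0.00903, adjusted 0.163). Among the 3566 genes with a mean of at least 100 normalized counts, those most like Pck1 over the 18 group-centred mice were Zpr1 (r = 0.85), Ak4 (0.76), Tat (0.75), Slc38a2 (0.72) and Baiap2l1 (0.71). Tat encodes the tyrosine aminotransferase and Slc38a2 an amino acid transporter, and both are in the list of substrate entry described below. Those most like G6pc1 were Atp6v0a2 (r = 0.81), Errfi1 (0.78), Ldah (0.76), Eif4e (0.74) and Picalm (0.74). Those most like Ppargc1a were Rbm5 (r = 0.83), Clk1 (0.78), Ogt (0.78), Ggnbp2 (0.77) and Fggy (0.74). These r are descriptions of the highest values found in a search and carry no p.

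The estimated counts are given per transcript, so the make-up of each gene could be compared. The leading transcript held more than 92% of Pck1 and Gpt2 in every mouse (Pck1-201 and Gpt2-201). The estimates for Pcx, Gpt and Slc37a4 were unstable, with Gpt-201 at 16.25% to 96.14% of the Gpt counts of a mouse. Slc37a4-201 held from 0% (male PP 3) to 100% of the Slc37a4 counts, with 43.99% in male LL 3. Fbp1-201 held from 62.45% to 100% of the Fbp1 counts. Pcx-202, which starts at position 4644374 of chromosome 19 on GRCm39, held from 5.80% to 95.9% of the Pcx counts of a mouse. Pcx-204, which starts at 4560514, was assigned no count in male PP 1, male LL 1, male LL 2, female LL 1 and female LL 4. Pcx-202 has 4044 bases and Pcx-204 has 4061. Over the 5 female LL mice Pcx-202 held 73.8% ± 18.5 (SD) of the counts and over the 5 female PP mice 35.0% ± 23.9, for which the exact permutation p was 0.0317 and 0.444 when adjusted over 14 tests. Over the 4 male LL mice it held 65.0% ± 40.1 and over the 4 male PP mice 44.1% ± 40.4 (exact permutation p = 0.486, adjusted 0.764). None of the 14 comparisons of a leading share passed after adjustment. Fragment length differed between the same female groups, and its part in the Pcx share was not tested. Slc37a4-201 was assigned 0 counts in male PP 3, where Slc37a4-207 held 552.9, while the normalized count of the gene (546) lay beside the median of its group (544.9).

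**Figure D5:**
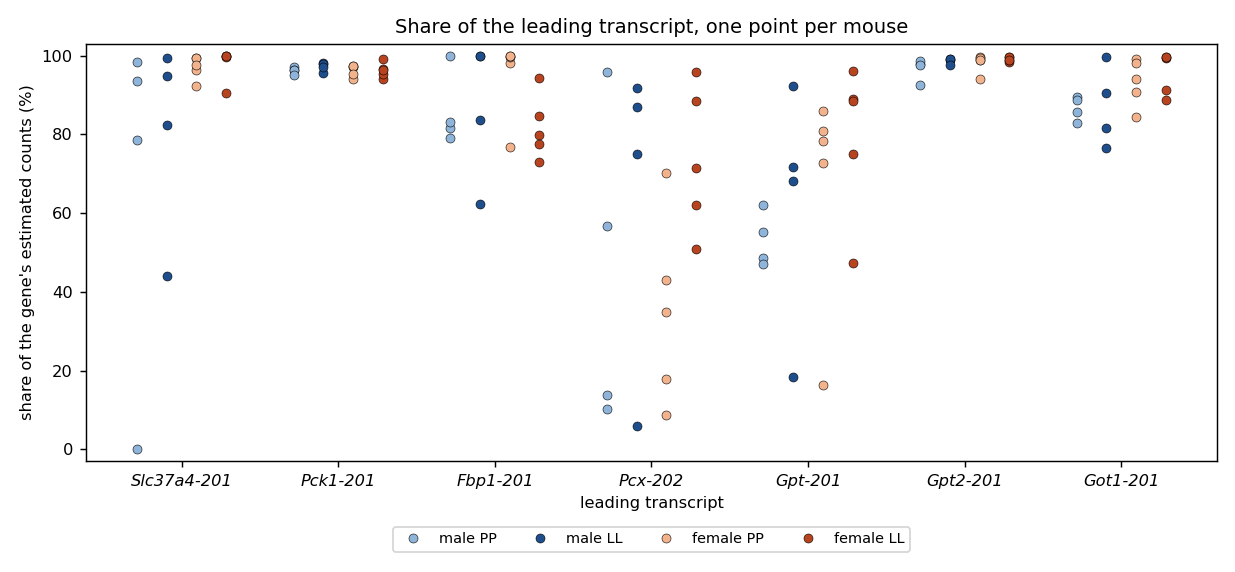
Share of the estimated counts of each gene held by its leading transcript (vertical axis, percent), with 1 point per mouse, coloured by group. Pck1-201 and Gpt2-201 stay above 92% in all mice, whereas Pcx-202 ranges from 5.80% to 95.9%, Gpt-201 from 16.25% to 96.14% and Slc37a4-201 from 0% to 100%.

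Other genes of the pathway were counted by lists. Of 28 genes for shared steps, shuttles and substrate entry, 26 were tested. By adjusted P below 0.05, 1 of them rose in male LL mice, 1 fell in female LL mice, and 1 rose and 1 fell over both sexes, where 0.329%, 0.777% and 1.65% of all genes tested passed in either direction. In female LL mice Slc25a13, a mitochondrial aspartate-glutamate carrier, passed the test with a log2 fold change of -4.41 ± 1.17 (adjusted P = 0.0284). This rested on female PP 5, at 1037 counts, against 5.88 to 11.8 in the other 4 female PP mice and 8.75 to 13.6 in female LL mice. Without female PP 5 the log2 fold change was 0.32 and the adjusted P 0.951. It also passed over both sexes (-3.59 ± 0.88, adjusted P = 0.00703), and without female PP 5 DESeq2 gave -1.23 there with no adjusted P. Male PP 2 and male PP 4 had 115 and 109 counts of Slc25a13, against 9.60 in male PP 1 and 14.1 in male PP 3. Male LL mice had 7.14 to 10.8. Without any 1 of the male PP mice DESeq2 gave no adjusted P over both sexes either. Mpc1, a subunit of the mitochondrial pyruvate carrier, rose over both sexes, by 0.41 ± 0.11 (adjusted P = 0.0164), from 705 ± 98.7 to 891 ± 87.8 in males (SD, n = 4 each) and from 948 ± 197 to 1325 ± 177 in females (SD, n = 5 each). Its adjusted P was 0.129 with edgeR, 0.630 with the length offset, 0.475 on the TPM scale, 0.762 with age and fragment length as terms, 0.271 with fragment length as a term, 0.0576 with age as a term and 0.0825 without male PP 2.

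Of 17 regulators, 16 were tested. By adjusted P below 0.05, 0 passed in males, where DESeq2 gave an adjusted P for 8 of the 16 and 0.329% of all genes tested passed, and 1 fell in female LL mice, where all 16 had one and 0.777% of all genes passed. Creb1, the transcription factor through which cAMP acts, had 55.9 to 70.1 counts in female PP and 28.5 to 43.1 in female LL mice, which did not overlap, with a log2 fold change of -0.69 ± 0.18 (adjusted P = 0.0284). In males it had 36.9 to 49.6 counts in PP and 47.3 to 75.2 in LL mice. The interaction of Creb1 was -1.08 ± 0.28 with an unadjusted p of 0.000106 and no adjusted P from DESeq2. The female adjusted P of Creb1 was below 0.05 in 14 of 27 alternative fits, 0.135 with edgeR, 0.431 with the length offset, 0.518 on the TPM scale, 0.0741 with a term for age, 0.184 with one for fragment length and 0.513 with both. It was above 0.05 without female PP 1 (0.0556), female PP 2 (0.0888), female PP 3 (0.0956), female PP 5 (0.174), female LL 1 (0.114) or female LL 4 (0.0787), and DESeq2 gave none without female LL 3 or female LL 5. Foxo1, which insulin excludes from the nucleus, had log2 fold changes of -0.11 ± 0.26 in males and -0.17 ± 0.23 in females (adjusted P = 0.782 in females).

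None of the 8 genes of the opposing glycolytic steps, the 8 of the fed and fasted state, the 10 tested of 12 clock genes and the 6 of the glucocorticoid response passed the test by LL genotype in either sex. In males an adjusted P was given for 6 of the 8 glycolytic genes, 5 of the 8 of the fed and fasted state, 4 of the 10 clock genes and 2 of the 6 glucocorticoid genes, so the others could not pass. By sex, 7.01% of all genes tested passed in PP and 7.11% in LL mice. In each genotype 2 of the 26 genes of shared steps, shuttles and substrate entry were higher in females. Mpc2 was higher in female than in male PP mice (0.65 ± 0.20, adjusted P = 0.0189) and LL mice (0.71 ± 0.20, adjusted P = 0.00757), and Mpc1 in LL mice (0.57 ± 0.15, adjusted P = 0.00592). Sgk1, a glucocorticoid-induced kinase, was higher in female PP mice (1.16 ± 0.32, adjusted P = 0.00612). No other of the 6 glucocorticoid genes passed there, and 4 of the 6 were below 0 (median -0.03). Lpin1, a phosphatidate phosphatase and co-activator induced by fasting, was lower in female LL mice (-1.13 ± 0.29, adjusted P = 0.00438). No other of the 8 fed and fasted genes passed there, and 4 of the 8 were above 0. With transcript length as an offset none of these sex differences passed (adjusted P = 0.162 for Sgk1, 0.0701 for Lpin1 and 0.615 for Mpc1, and for Mpc2 0.759 in PP and 0.746 in LL mice). On the TPM scale those in LL mice did not pass either (0.251 for Lpin1, 0.221 for Mpc1 and 0.170 for Mpc2). With edgeR the adjusted P was 0.0593 for Mpc2 in PP mice, and with age and fragment length as terms it was 0.0684 for Mpc2 in PP and 0.0563 in LL mice. It rose above 0.05 without male PP 2 for Mpc2 (0.126) and Sgk1 (0.0585) in PP mice, without male PP 3 for Sgk1 (0.0544), without female PP 4 (0.0829) or male PP 4 (0.0656) for Mpc2 in PP mice, and without male LL 1 for Mpc2 in LL mice (0.0593).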

How the data were processed

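Liver RNA from 18 mice was sequenced, with 1 library per mouse. The authors quantified transcripts with Salmon (version 1.4.0 in the submitters' processing notes) on GRCm39 with GENCODE M26 transcripts, after FastQC. The deposited files give estimated counts per transcript, of which 90.8% of values above 0 were not whole, and TPM, which the authors' tool scales by effective length and to a fixed sum per library. Estimated counts were summed per gene through a later GENCODE release (M39), which joined 137570 of 139225 transcripts and at least 99.76% of the counts of a library, and were rounded. The 10938 genes that reached 10 counts in 4 or more libraries entered 1 DESeq2 (1.42.0, R 4.3.3) Wald test over the 4 groups, with Benjamini-Hochberg adjustment over all genes and a further DESeq2 filter that leaves some adjusted P empty. Total counts of 3794671 to 6613905 limit the precision of low genes such as Ppargc1a.

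Alternatives were edgeR (4.0.16), TMM factors, other filters, a transcript length offset, fragment length or age as a term, limma (3.58.1) on log2(TPM + 1), a replicate block, each contrast alone and each library left out. The fit with age and fragment length together was added after seeing the data. Permutation tests were exact for groups, with smallest p of 0.0286 in males and 0.00794 in females, and used 100000 resamples for correlations (SciPy 1.17.1). Scripts were tested on simulated data. The labels do not say more of replicates than that each is a mouse. All 9 members were named in every comparison, and other pathway genes where they passed by genotype or, by sex, had the 3 largest changes among those that passed. The members and lists were chosen with earlier results of these data known. Some genes of these lists are counted but not reported here by name.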

Additional observations from a re-analysis of the deposited data

How the results depend on the processing

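Between female and male PP mice, 0 members were DEGs in the reported fit, 1 with age as a term (Got1), 1 with age and fragment length as terms (Got1), 1 with only the groups of the contrast (Fbp1) and 2 with limma on log2(TPM + 1) (Got1 and Pcx). With only the groups of the contrast, 760 of all 10454 genes tested were DEGs. Of 10938 genes in the other fits, 705 were DEGs as reported, 737 with age and 646 with age and fragment length. With limma on log2(TPM + 1) 4307 of the 10938 were, so the 2 members there do not stand out. On that TPM scale the log2 difference of Gpt2 between the same groups was 0.17, opposite in sign to the reported -0.50. Between female and male LL mice, 1 member was a DEG in the reported fit and 0 with edgeR, the transcript length offset, fragment length as a term, limma on log2(TPM + 1), only the groups of the contrast, age and fragment length as terms, or the replicate block. Of all genes, 669 were DEGs in the reported fit and 432 to 520 in these alternatives. No pairing of mice by replicate number was detected. Correlations of same-numbered deviations ran from -0.17 to 0.05 in males and from -0.10 to 0.16 in females, and 2 of 9 numbers matched best with their own. With 4 or 5 mice per group this cannot exclude a pairing. With the replicate block the log2 fold change of Pcx was 0.45 (adjusted P = 0.122). On log2 TPM, 1 pair of members passed in place of 0 by Pearson r (Slc37a4 with Fbp1, r = 0.86, adjusted permutation p = 0.00936), but not by Spearman rho (0.70, adjusted permutation p = 0.144). Among all genes, with 1 library left out, 20 to 58 were DEGs by LL genotype in males. Between female and male mice 548 to 738 were in PP and 465 to 804 in LL mice. With 1 library left out, the count of DEGs among the members was 0 to 1 by LL genotype in males (Got1 without male LL 3), 0 to 1 between female and male PP mice and 0 to 2 between female and male LL mice, and 4 to 6 library measures had an unadjusted p below 0.05 against 5 with all mice. The other counts, in females, over both sexes, for the interaction, pairs, relations and transcript shares, stayed at 0 without any 1 library. Of all values of single members under an alternative, 1522 kept their side of the adjusted P threshold, 9 passed it, 16 lost it and 1 that had passed changed sign. Of the 1522, 80 changed sign as well, with an adjusted P that passed in neither fit, so the direction of a member that did not pass is not settled by these data. The cause of these changes was not tested.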
